A study of Mus musculus with 20 samples.

Results

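Slfn5, Ifnar1 and Ifi202b are the 3 transcripts of interferon and innate immune pathways described here, from a panel of amplicons made to read adenosine-to-inosine RNA editing in mouse embryonic fibroblasts. Their sites were taken where coverage, the number of reads over a site, was at least 50 in both libraries of at least 1 group. This left 132 sites, of 9065 sites in the series that met the same requirement and 48425 sites listed in the tables. Slfn5 gave 28 sites, Ifnar1 66 and Ifi202b 38. The editing level is the share of reads at a site that carry the edited base, in percent.

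Cells of 5 lines were either treated with interferon or left untreated, and each line and treatment had 2 libraries, so 20 libraries form 10 groups. The lines carry the genotype labels ADAR1_NULL, P150_KO, ADAR2_NULL, STAT2_NULL and ADAR1_WT. The design text of the series counts 1 line more, which was not analysed here. The sources used here give no strain, embryo age or allele for the lines, and no type, dose or length of the interferon exposure. Each genotype is 1 line, so a genotype cannot be told apart from any other difference between lines. No label ties a group's libraries to separate cultures, and p-values therefore reflect library-to-library spread that can be technical. The assay reads levels within amplicons and not expression, so neither the fibroblast label nor the loss of the targeted proteins could be checked.

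Adenosine-to-inosine editing is carried out on double-stranded RNA by ADAR1 and ADAR2, and inosine is read as guanosine in cDNA. ADAR1 has a constitutive p110 form and a p150 form made from an interferon-inducible promoter. Type I interferon binds the receptor made of IFNAR1 and IFNAR2, and STAT2 takes part in carrying the signal to the nucleus. Slfn5 encodes a member of the Schlafen family, whose genes are known as interferon-induced regulators of growth and antiviral defence. Ifi202b encodes a member of the HIN-200 family of interferon-inducible proteins, known in mice as a DNA-binding protein that restrains the AIM2 inflammasome. Its expression is known to differ between inbred mouse strains.

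In coordinates of the mouse build mm9, as the tables give them, the 28 Slfn5 sites lie on the + strand of chromosome 11 between positions 82776068 and 82776218, within 151 bases of the 3′ UTR. The 66 Ifnar1 sites lie on the + strand of chromosome 16 between 91490677 and 91491069, within 393 bases of an intron. The 38 Ifi202b sites lie on the − strand of chromosome 1 between 175894037 and 175901539. Of these, 25 are annotated as nonsynonymous and 13 as synonymous coding positions. The tables list 9 further Slfn5 sites, which had 0 reads in every library. The tables do not say if their positions start at 0 or at 1, and they contain no sequence around the sites.

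Coverage set which groups could be compared. Libraries had 4389326 to 5559674 reads summed over all sites, and 5652 to 8814 sites were covered by 50 reads or more. The first ADAR1_NULL untreated library (5652 sites) and the first P150_KO interferon library (5819 sites) had the fewest. Within these 2 groups the log2 coverage of the libraries correlated at 0.685 and 0.684, against 0.889 to 0.985 in the other 8 groups. Ifnar1 was covered in all 20 libraries, with 53 to 276 reads at position 91490832. Slfn5 had up to 4 reads in the first P150_KO interferon library and up to 729 in the second. It had 0 and up to 2 reads in the untreated P150_KO libraries. In untreated ADAR1_NULL cells it had up to 216 reads in the first library and 0 in the second. Ifi202b had up to 8 and up to 715 reads in the P150_KO interferon libraries and at most 2 in the untreated ones, against up to 1786 to 2696 in the 16 libraries of the other lines. Both transcripts were therefore read in P150_KO cells at 50 reads or more from the second interferon library alone. That library departs from the other 3 P150_KO libraries in its coverage of both transcripts, and from the 2 of them with reads there in its level at 1 Ifi202b site, given with that site. A mix-up of this library or carry-over into it was not tested, and the Slfn5 and Ifi202b levels of P150_KO cells rest on it.

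The 2 mates of a read pair appear to be counted as separate reads. In the Slfn5 amplicon, coverage in the middle equalled the sum of the coverage at its 2 ends to within 4 reads in all 16 libraries with coverage. In the first ADAR1_WT interferon library, for example, 370 reads at the left and 481 at the right stood against 852 in the middle. The same held for Ifi202b to within 4 reads in 17 libraries. The libraries carry no molecular identifiers either, so binomial intervals and limits cover counting error only and are too narrow. Coverage of Ifi202b also ran across a stretch of 7373 bases without sites, from 175894113 to 175901486, and the coverage at its 2 edges differed by at most 0.281% in the 17 libraries. The 21 sites below and 17 sites above that stretch therefore lie in 1 amplicon of spliced cDNA. No such junction lies in the Ifnar1 and Slfn5 amplicons, where cDNA and genomic DNA were not told apart.

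Slfn5 was edited in interferon-treated cells of 2 lines. Averaged over its 28 sites, the level was 8.55% ± 1.22 in ADAR2_NULL cells and 18.8% ± 0.469 in ADAR1_WT cells after interferon (SD, n = 2 libraries each). The single libraries had 7.69% and 9.42% in ADAR2_NULL and 19.1% and 18.4% in ADAR1_WT. In the 12 other libraries with coverage this mean was 0.188% to 0.578%. The highest level at any site in those 12 libraries was 2.78%, and the median level was 0.239%.

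The site with the highest level on average was 82776122. It stood at 33.8% and 37.4% in ADAR2_NULL cells with interferon, against 0.216% and 0.484% without. ADAR1_WT cells had 65.8% and 75.1% with interferon, against 0.310% and 0.707% without. STAT2_NULL cells had 0% and 0.680% with interferon, against 0% and 1.03% without. ADAR1_NULL cells had 0.216% and 0.278% with interferon, against 1.85% in the only untreated library with coverage. The second P150_KO interferon library had 0%. Only the treated libraries of ADAR2_NULL and ADAR1_WT stood above 2% at this site, and those of the 2 lines did not overlap.

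The second site by average level, 82776157, had 24.0% and 37.4% in treated ADAR2_NULL cells, against 0% and 0.484% in untreated ones. In ADAR1_WT cells it had 66.1% and 75.7% with interferon. Untreated ADAR1_WT cells had 0 edited reads of 605 there, which allows a level of up to 0.496%. The remaining libraries with coverage had 0.216% and 0% (ADAR1_NULL, interferon), 0.926% (ADAR1_NULL, untreated), 0% (P150_KO, interferon), 0% and 0.544% (STAT2_NULL, interferon) and 0% and 0.294% (STAT2_NULL, untreated). As at 82776122, the treated ADAR1_WT libraries lay above the treated ADAR2_NULL ones, and these lay above all other covered libraries.

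Site 82776119 had 28.9% and 33.4% in treated ADAR2_NULL cells, against 0% and 0.484% in untreated ones. ADAR1_WT cells had 69.2% and 65.9% with interferon, against 0% and 0.707% without. The other libraries had 0.431% and 0.278% (ADAR1_NULL, interferon), 2.78% (ADAR1_NULL, untreated), 0% (P150_KO, interferon), 0% and 0.408% (STAT2_NULL, interferon) and 0% and 0.587% (STAT2_NULL, untreated). The 2.78% is the highest value of those 12 libraries and comes from the shallow untreated ADAR1_NULL library with 216 reads, against 927 and 720 in the treated ones.

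Site 82776097 had 28.7% and 34.7% in treated ADAR2_NULL cells, against 0.216% and 0.605% in untreated ones. ADAR1_WT cells had 62.7% and 60.4% with interferon, against 0.619% and 1.41% without. The other libraries had 0.647% and 0% (ADAR1_NULL, interferon), 1.40% (ADAR1_NULL, untreated), 0% (P150_KO, interferon), 0.120% and 0% (STAT2_NULL, interferon) and 0.126% and 1.03% (STAT2_NULL, untreated). At all 4 of these sites the treated ADAR1_WT libraries lay above the treated ADAR2_NULL ones.

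The plot of Slfn5 levels along the 3′ UTR shows how uneven the editing was within 151 bases. In treated ADAR1_WT cells 6 of the 28 sites reached at least 50%, 14 reached at least 5% and 13 stayed under 1%. The 14 sites span 96 bases at the left of the covered stretch. The 9 sites from 82776189 to 82776218 reached at most 0.993% in the treated libraries of ADAR2_NULL and ADAR1_WT.

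**Figure D1:**
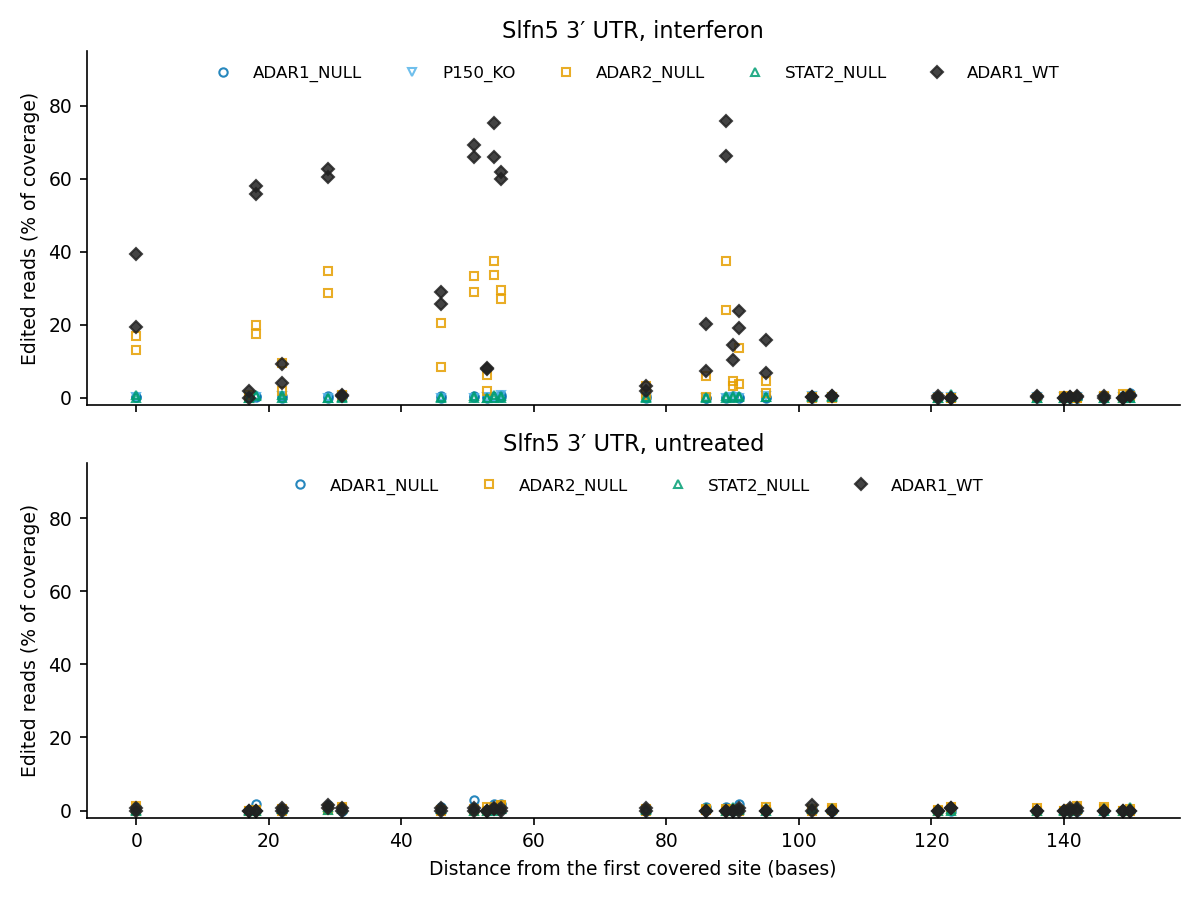
Editing level in percent of reads (vertical axis) at the 28 Slfn5 sites against the distance in bases from the first covered site (horizontal axis), for interferon-treated libraries (top) and untreated libraries (bottom). Each point is 1 library with at least 50 reads, and the colour and shape give the line. Treated ADAR1_WT libraries reached 75.7% and treated ADAR2_NULL libraries 37.4%, while no other library exceeded 2.78%.

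Levels also differed between adjacent sites. Of the 3 adjacent sites 82776121, 82776122 and 82776123, the outer left one had 6.39% and 1.95% in treated ADAR2_NULL cells and 7.98% and 8.25% in treated ADAR1_WT cells. The right one had 27.1% and 29.5% in treated ADAR2_NULL cells and 59.9% and 61.9% in treated ADAR1_WT cells. Of the adjacent sites 82776157, 82776158 and 82776159, the middle one had 4.76% and 3.25% in ADAR2_NULL and 10.5% and 14.6% in ADAR1_WT. The right one had 3.88% and 13.8% in ADAR2_NULL and 19.1% and 23.9% in ADAR1_WT. In both runs of 3 the treated ADAR1_WT libraries of one site did not overlap with those of the next, while 82776158 and 82776159 overlapped in ADAR2_NULL.

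The remaining sites above 5% in treated ADAR1_WT cells fell in a wide range. Site 82776086 had 19.9% and 17.5% in treated ADAR2_NULL cells and 58.1% and 55.8% in treated ADAR1_WT cells, and untreated ADAR1_WT cells had 0 edited reads of 304 (up to 0.987%). Site 82776068 had 13.1% and 16.9% in ADAR2_NULL and 39.3% and 19.6% in ADAR1_WT. Site 82776114 had 8.52% and 20.4% in ADAR2_NULL and 28.9% and 25.7% in ADAR1_WT. At each of these 3 sites the lines did not overlap, although single lines varied up to about 20 points between libraries.

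At sites 82776154, 82776163 and 82776090 the libraries of the same treated line differed by over 2 times in both lines. The first had 5.90% and 0.260% in treated ADAR2_NULL cells and 20.3% and 7.41% in treated ADAR1_WT cells. The second had 4.77% and 1.30% in ADAR2_NULL and 15.8% and 6.71% in ADAR1_WT. At 82776090 the lines overlapped, with 1.83% and 9.54% in ADAR2_NULL and 4.05% and 9.29% in ADAR1_WT. Site 82776145, below 5%, had 0.877% and 3.25% in ADAR2_NULL and 2.0% and 3.22% in ADAR1_WT. In the 12 other libraries the highest level at these 4 sites was 0.926%, and at the 4 sites 82776068, 82776086, 82776114 and 82776123 it was 1.85%. At 82776121, 82776158 and 82776159 it was 0.969%, 1.01% and 1.85%.

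Slfn5 levels at the tested sites were higher after interferon in both lines. Of the 28 sites, 15 had enough reads and a mean level of at least 1% in the libraries compared, and the other 13 were not tested. In ADAR2_NULL cells 11 of the 15 tested sites were higher after interferon, against 52.2% of the 1145 sites tested in this comparison across the panel (edgeR quasi-likelihood test, Benjamini-Hochberg adjusted p under 0.05). In ADAR1_WT cells 13 of 15 were higher, against 40.4% of 1223. No Slfn5 site was lower in either line. The median difference over the 15 sites was 14.3 percentage points in ADAR2_NULL and 27.0 in ADAR1_WT, against 4.78 and 5.27 points over all sites tested in each comparison. The 15 sites passed the level requirement through the treated libraries, so the direction of the counts and median differences follows largely from that requirement. They are a description of the tested sites and not of all 28.

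The difference at 82776122 was 35.2 points in ADAR2_NULL cells (SE 1.83, adjusted p = 0.000505 by edgeR) and 69.9 points in ADAR1_WT cells (SE 4.65, adjusted p = 0.000407). At 82776157 it was 30.4 points in ADAR2_NULL cells (SE 6.72, adjusted p = 0.000709) and 70.9 points in ADAR1_WT cells (SE 4.79, adjusted p = 0.000252). In ADAR2_NULL cells the 4 tested sites without a call were 82776121, 82776145, 82776154 and 82776163, with differences of 1.82 to 3.69 points and adjusted p of 0.0754 to 0.191. In ADAR1_WT cells the 2 without a call were 82776090 (6.32 points, adjusted p = 0.0583) and 82776145 (2.30 points, adjusted p = 0.141). When the spread was estimated from the ADAR1_WT libraries alone, 5 of the 13 ADAR1_WT calls were left. The 8 others had adjusted p of 0.0512 to 0.0646.

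STAT2_NULL cells had Slfn5 coverage of up to 837 and 735 reads in the treated libraries and 797 and 681 in the untreated ones. The level averaged over the 28 sites was 0.231% ± 0.0309 with interferon, against 0.359% ± 0.0252 without (SD, n = 2 libraries each). No Slfn5 site reached the level needed for a test of interferon there. Against ADAR1_WT cells after interferon, 15 of 15 tested sites were lower in STAT2_NULL, beside 39.8% of 1217 sites across the panel. These sites reached the 1% needed for a test through the treated ADAR1_WT libraries alone, so the count follows largely from that requirement and is a description. The same holds for the counts of lower Slfn5 responses and for those of ADAR1_NULL and P150_KO against treated ADAR1_WT cells. At 82776157, treated STAT2_NULL cells had 0% and 0.544%, a difference of -70.6 points from ADAR1_WT (SE 4.80, adjusted p = 0.000179 by edgeR).

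The difference between the interferon responses of STAT2_NULL and ADAR1_WT cells was tested on the scale of log odds. Of 14 tested Slfn5 sites, 11 had a lower response in STAT2_NULL, beside 13.7% of 1026 sites across the panel called in this direction. At 82776123 the STAT2_NULL response minus the ADAR1_WT response was -60.8 points (SE 1.06, adjusted p = 0.00569 by edgeR). This count depends on single libraries. It fell to 4 without the first untreated ADAR1_WT library, to 5 without either treated or without the second untreated STAT2_NULL library, and to 6 without the first untreated STAT2_NULL library. It was 4 when only the groups compared entered the fit.

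In ADAR1_NULL cells the mean over the 28 sites was 0.242% ± 0.0673 after interferon (SD, n = 2 libraries). All 15 tested sites were lower than in treated ADAR1_WT cells, beside 69.5% of 1159 sites across the panel. The difference was -70.8 points at 82776157 (SE 4.79, adjusted p = 4.06e-05 by edgeR). The untreated ADAR1_NULL group had 1 covered library, at 0.578%, so a response was not tested with 50 reads required in every library. With the uncovered library left out, the ADAR1_NULL response minus the ADAR1_WT response was -71.7 points at 82776157. This value rests on the lone untreated library. In P150_KO cells the second interferon library, with up to 729 reads, had a mean of 0.221% and no site above 0.824%. That value rests on 1 library whose coverage departs from its pair, so Slfn5 was not tested in P150_KO with that requirement. With the first interferon library left out, the difference of P150_KO from treated ADAR1_WT cells was -70.9 points at 82776157. It rests on that same single library.

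The order of the group means was therefore ADAR1_WT with interferon, then ADAR2_NULL with interferon, then all others at or below 0.578%. Among the 7 lower groups with coverage, the ranges of neighbours in the order overlapped except at 2 places. The single untreated ADAR1_NULL library (0.578%) lay above untreated STAT2_NULL cells (0.341% to 0.377%), and untreated ADAR2_NULL cells (0.311% to 0.403%) lay above treated ADAR1_NULL cells (0.194% to 0.289%). The plot of means per gene shows these levels for each library.

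**Figure D2:**
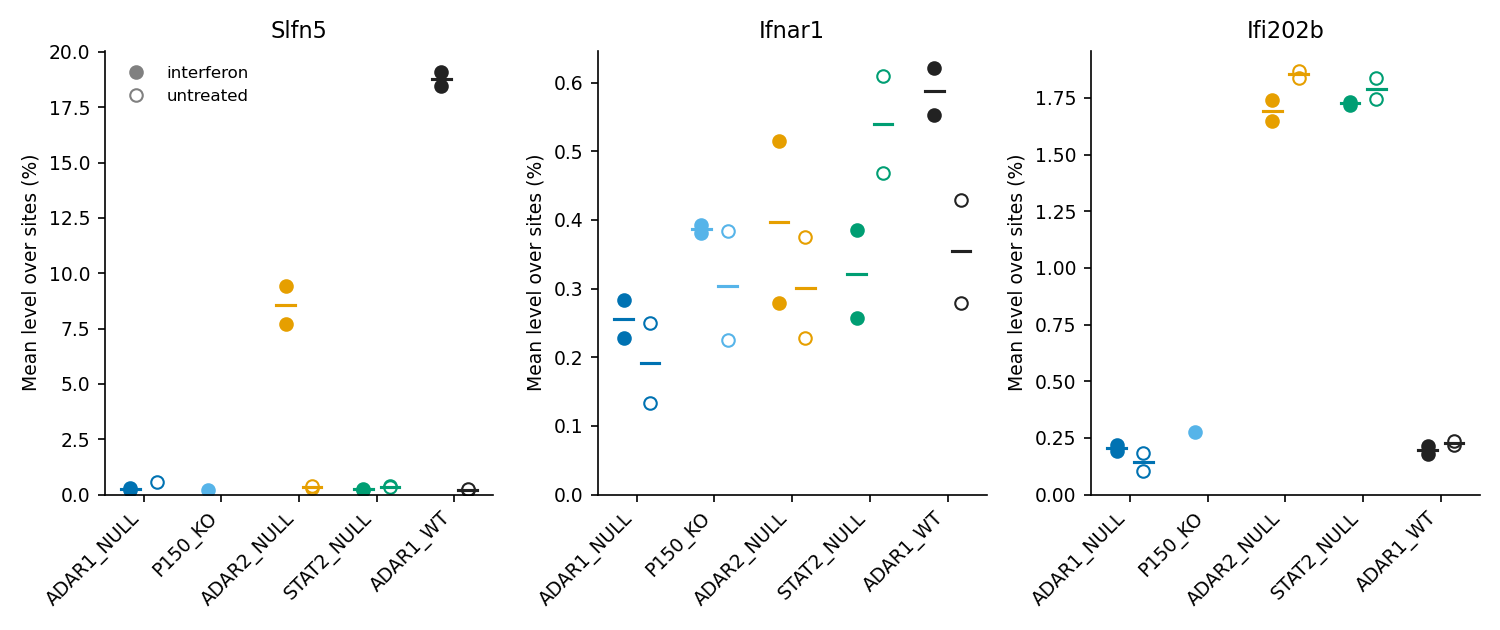
Mean editing level in percent over the 28 Slfn5, 66 Ifnar1 and 38 Ifi202b sites (vertical axes, each with its own scale from 0) by line. Filled points are interferon-treated libraries, open points are untreated libraries and the short lines are group means. The treated ADAR1_WT libraries had 19.1% and 18.4% for Slfn5, all Ifnar1 means lay below 0.63%, and 1 site sets the gap in the Ifi202b means between ADAR2_NULL or STAT2_NULL and the other lines plotted.

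The 2 lines with edited Slfn5 shared the pattern over sites and differed in level. Across the 28 sites, the mean level in treated ADAR2_NULL cells followed that in treated ADAR1_WT cells with a Pearson r of 0.985, a description over sites of 1 amplicon that share reads and libraries. At the 14 sites of at least 5% in ADAR1_WT, the ADAR2_NULL level was 0.222 to 0.851 of the ADAR1_WT level, with a median of 0.463. The ratio of the means over all 28 sites was 0.456. Both ADAR2_NULL libraries lay below both ADAR1_WT libraries at 13 of the 15 tested sites, against 33.5% of 1348 sites tested across the panel.

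This difference was not called at any single site. Of 15 sites tested between treated ADAR2_NULL and treated ADAR1_WT cells, 0 passed, with adjusted p of 0.282 to 0.943 by edgeR, beside 1.56% of all tested sites called lower. One site, 82776086, had an unadjusted p under 0.05 (-38.2 points, SE 1.68, adjusted p = 0.282). At 82776157 the difference was -40.2 points (SE 8.25, adjusted p = 0.389). Between the responses of the 2 lines, 0 of 15 sites passed as well, and 2 had an unadjusted p under 0.05, beside 0.0873% of 1146 sites called lower. The test does not show that the lines are alike: at 82776122 the difference was -34.9 points (SE 5.0) and the levels did not overlap. With limma on log2 odds no Slfn5 site was called between the treated cells of these lines either.

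Coverage of the Slfn5 amplicon moved with editing. In the 4 treated libraries of ADAR2_NULL and ADAR1_WT the left end of the amplicon, where edited sites lie, had 76.9% to 92% of the reads of the right end. In the 12 other libraries it had 99.4% to 103%. The second ADAR1_WT library, for example, had 312 reads at the left and 403 at the right. The part of this imbalance in the levels was not tested, and the sources used here do not give the mismatch settings of the alignment.

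**Figure D3:**
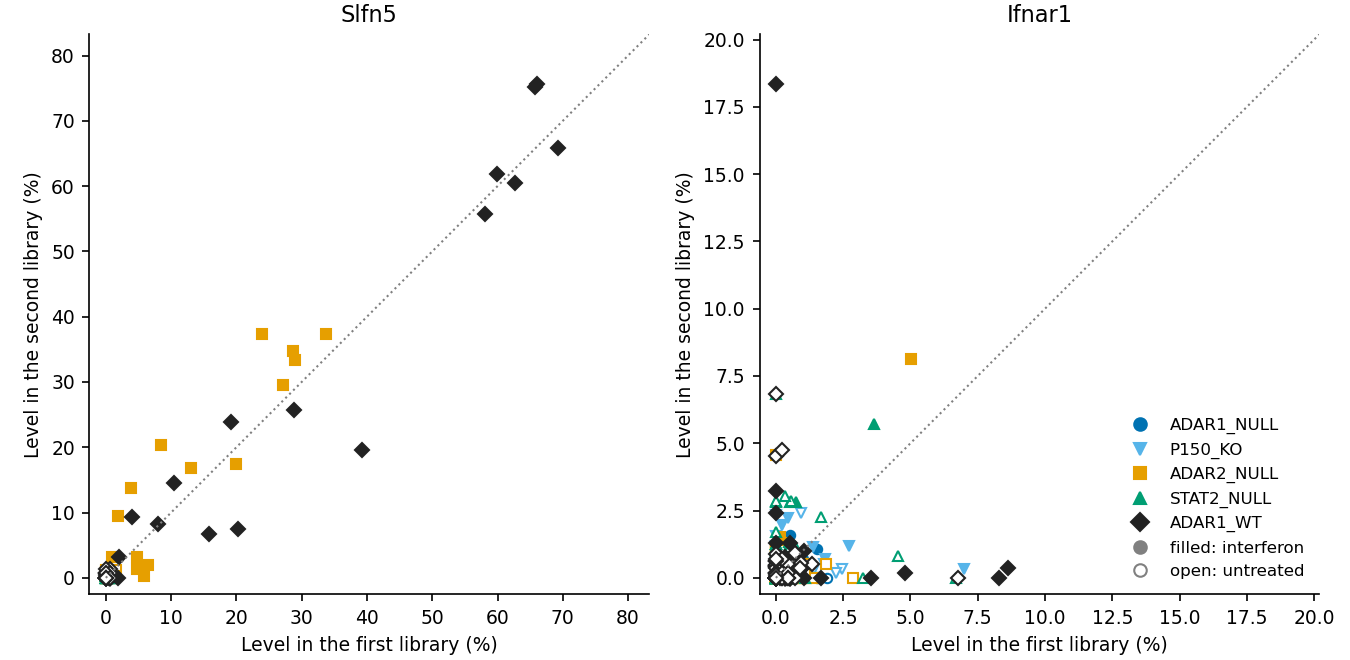
Editing level in the first library (horizontal axis, percent) against the second library (vertical axis, percent) of each group for Slfn5 (left) and Ifnar1 (right), on separate scales, with 1 point per site and group where both libraries had at least 50 reads. The dotted line marks equal levels. Slfn5 points of treated ADAR1_WT and ADAR2_NULL run along the line, while most Ifnar1 levels above 2% lie along an axis, near 0 in the other library.

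The pattern most like that of Slfn5 82776122 was found at 5 sites of different genes, out of 951 sites of other genes. Similarity was the Pearson correlation of group means over the 7 groups in which both libraries were covered. Site 35926931 of Dtx3l, on chromosome 16, had an r of 0.9998. Its means were 11.9% in treated ADAR2_NULL and 22.9% in treated ADAR1_WT cells, against 0.241% and 0.212% in untreated cells of these lines. The other genes were Zyg11b, Specc1, Trove2 and Mtap6, whose highest means were 38.6%, 21.7%, 10.9% and 25.1%, all in treated ADAR1_WT cells. Such a correlation is set by the 2 groups with high levels.

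Ifnar1 was barely edited, and its few higher levels seldom appeared in both libraries of a group. The order of the means over the 66 intronic sites, from the top, was ADAR1_WT with interferon (0.587%), STAT2_NULL untreated (0.540%), ADAR2_NULL with interferon (0.397%), P150_KO with interferon (0.387%), ADAR1_WT untreated (0.354%), STAT2_NULL with interferon (0.321%), P150_KO untreated (0.304%), ADAR2_NULL untreated (0.301%), ADAR1_NULL with interferon (0.256%) and ADAR1_NULL untreated (0.191%). The ranges of every pair of neighbours in this order overlapped. Treated ADAR1_WT libraries had means of 0.622% and 0.553%, against 0.280% and 0.429% in the untreated ones.

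Of 1320 Ifnar1 values, 66 sites in 20 libraries, 35 exceeded 2%, at 22 sites. Both libraries of a group exceeded 2% in 2 instances only, both at site 91490832. Of 11 values above 5%, at 8 sites, 1 pair of libraries shared a site. The plot of one library against the other shows most of these values on an axis. ADAR1_NULL had no level above 1.89%.

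The Ifnar1 site with the highest average level, 91490679, had 29 edited reads of 158 (18.4%) in the second treated ADAR1_WT library and 0 of 193 in the first. Untreated ADAR1_WT cells had 6.79% in the first library and 0% in the second. The other 16 libraries had at most 2 edited reads. Neither treated nor untreated ADAR1_WT cells thus showed this site in both libraries, and the interferon difference of 5.78 points (SE 9.78, adjusted p = 0.677 by edgeR) was within the spread.

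Site 91490832 was the one Ifnar1 position above 2% in both libraries of a group. Treated ADAR2_NULL cells had 5.03% and 8.12%, from 9 and 16 edited reads, against 1.42% and 0% in untreated cells. Treated STAT2_NULL cells had 3.66% and 5.73%, from 7 and 9 edited reads, against 0% and 2.84% in untreated cells. All 8 libraries of ADAR1_NULL and ADAR1_WT had 0%, and the P150_KO libraries had 0% apart from the second treated one at 0.581%. The 0 of 384 reads in treated ADAR1_NULL cells allows a level of up to 0.781%, and the 0 of 345 in treated ADAR1_WT cells up to 0.870%. The treated libraries of ADAR2_NULL and STAT2_NULL stood above all others.

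Against treated ADAR1_WT cells this site was higher in treated STAT2_NULL cells by 4.70 points (SE 1.03, adjusted p = 0.0375 by edgeR), beside 1.15% of sites called higher across the panel. It reached the 1% needed for a test through the treated STAT2_NULL libraries alone, so its direction follows largely from that requirement. The call was lost without any one of the 4 libraries, with adjusted p of 0.0691 to 0.117. Against treated ADAR1_WT, treated ADAR2_NULL cells differed by 6.57 points (SE 1.55), which was not called (adjusted p = 0.126). The responses to interferon were 5.87 points in ADAR2_NULL (SE 1.70, adjusted p = 0.0757) and 3.28 points in STAT2_NULL (SE 1.76, adjusted p = 0.999), and neither was called. With limma on log2 odds the ADAR2_NULL response (adjusted p = 0.0181) and the difference of treated ADAR2_NULL from ADAR1_WT cells (adjusted p = 0.0351) passed at this Ifnar1 site.

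The third Ifnar1 site by average level, 91490940, had 8.63% and 0.384% in treated ADAR1_WT cells, against 0.223% and 4.76% in untreated ones. Untreated STAT2_NULL cells had 0.336% and 3.03% and untreated P150_KO cells 0.926% and 2.43%. The other 12 libraries had at most 1.65%. The next, 91491039, had 0.765% and 2.81% in treated STAT2_NULL cells and between 0.461% and 1.20% in the other 18 libraries. Neither site was called in any comparison over all libraries. Without the second treated ADAR1_WT library, 91490940 differed from the lone ADAR1_WT library by -8.38 points in treated ADAR1_NULL cells. In treated P150_KO and STAT2_NULL cells it differed by -8.04 and -8.39 points. Sites 91490692, 91490948 and 91490976, named after their values were seen, differed by -8.29, -3.31 and -4.29 points in treated ADAR1_NULL cells. Without the first, 91490679 differed by -18.4 points there. These sites then reached the 1% needed for a test through the lone ADAR1_WT library. Their direction follows largely from that requirement and is a description.

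One more Ifnar1 site was called. At 91490967 treated P150_KO cells had 2.73% and 1.19%, against 0.342% and 0% in treated ADAR1_WT cells. The difference was 1.79 points (SE 0.790, adjusted p = 0.0305 by edgeR), beside 0.577% of sites called higher. This site, too, reached the level needed for a test only through the group in which it was higher. Without the first treated P150_KO library, the one at 2.73%, the mean level fell under 1% and the site was not tested. The call was lost without the second treated ADAR1_WT library (adjusted p = 0.125) and with only these groups in the fit (adjusted p = 0.0865). Untreated P150_KO cells had 0.392% and 0.575%, and the 14 other libraries had at most 0.728%. Site 91490952, named after its values were seen, had 4.55% and 0.816% in untreated STAT2_NULL cells, against 0% and 0% in untreated ADAR1_WT cells. It was not called by edgeR (2.68 points, SE 1.86, adjusted p = 0.0524), and it passed with limma (adjusted p = 0.00997) and at a minimum of 100 reads (adjusted p = 0.0486).

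In all comparisons Ifnar1 had 2 to 8 tested sites, except for the response of ADAR1_NULL cells with none, and the 2 calls above were the only ones. In the interferon response, 0 of 2 tested sites in ADAR2_NULL, 0 of 6 in ADAR1_WT, 0 of 6 in STAT2_NULL and 0 of 4 in P150_KO were called by edgeR. Each of these 4 comparisons had 1 Ifnar1 site with an unadjusted p under 0.05. Across the panel 0% of 658 tested sites were called in either direction in STAT2_NULL and 1.65% of 243 were called lower in P150_KO, while the shares for ADAR2_NULL and ADAR1_WT are given above. Between untreated cells 0 of 4 Ifnar1 sites were called in ADAR1_NULL, 0 of 4 in P150_KO, 0 of 4 in ADAR2_NULL and 0 of 8 in STAT2_NULL against ADAR1_WT, beside 49%, 32.5%, 12.9% and 1.71% of tested sites called lower. Of these, 2 STAT2_NULL sites had an unadjusted p under 0.05. For the responses against that of ADAR1_WT it was 0 of 4 in ADAR1_NULL and 0 of 6 in P150_KO, beside 12.2% and 17% called lower, and 0 of these had an unadjusted p under 0.05. It was 0 of 5 in ADAR2_NULL and 0 of 8 in STAT2_NULL, with 0 and 2 at an unadjusted p under 0.05. The pattern nearest to that of 91490679 belonged to Nt5dc3 (r = 0.989 over 10 groups, 601 sites), followed by uc008lxo.1, Ncl, Cep97 and Gria3. It rests on single libraries of ADAR1_WT at the Ifnar1 site.

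Ifi202b had 1 site that stood apart from the other 37. Position 175901522, annotated as a lysine to glutamate change, read at 55.3% to 61.0% in all 8 libraries of ADAR2_NULL and STAT2_NULL, and at 0.0767% to 0.610% in the 9 covered libraries of the other lines. The median of the first 8 was 57.7% and their mean 58.1% ± 1.99 (SD over 8 libraries of 4 groups). The median of the 9 was 0.280%.

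By library, the site had 57.9% and 55.3% in treated ADAR2_NULL cells, against 59.4% and 60.5% in untreated ones. Treated STAT2_NULL cells had 56.8% and 56.8%, against 61.0% and 57.4% in untreated ones. Every one of these libraries had a 95% Wilson interval above 53.2%. The libraries of the 2 lines overlapped with each other, and none of the 17 libraries with at least 50 reads lay between 1% and 55%.

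The lines without that level were ADAR1_NULL, with 0.388% and 0.0925% in treated cells, against 0.181% and 0.302% in untreated ones, and ADAR1_WT, with 0.0767% and 0.306% in treated cells, against 0.148% and 0.610% in untreated ones. In P150_KO cells the libraries disagreed. The second treated library had 2 edited of 715 reads (0.280%), while the first treated one had 2 of 8 reads (25%) and the first untreated one 2 of 2 (100%). Since both mates appear to be counted, the 2 edited reads in each of the last 2 libraries can come from a single read pair. Carry-over into these shallow libraries was not tested either. Neither of these shallow libraries had an edited read at the other 37 sites, and the second untreated library had 0 reads. P150_KO is therefore not assigned to either set of lines. The neighbouring position 175901523 had at most 0.700% in any covered library. The plot of this site by group shows the libraries with at least 50 reads.

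**Figure D4:**
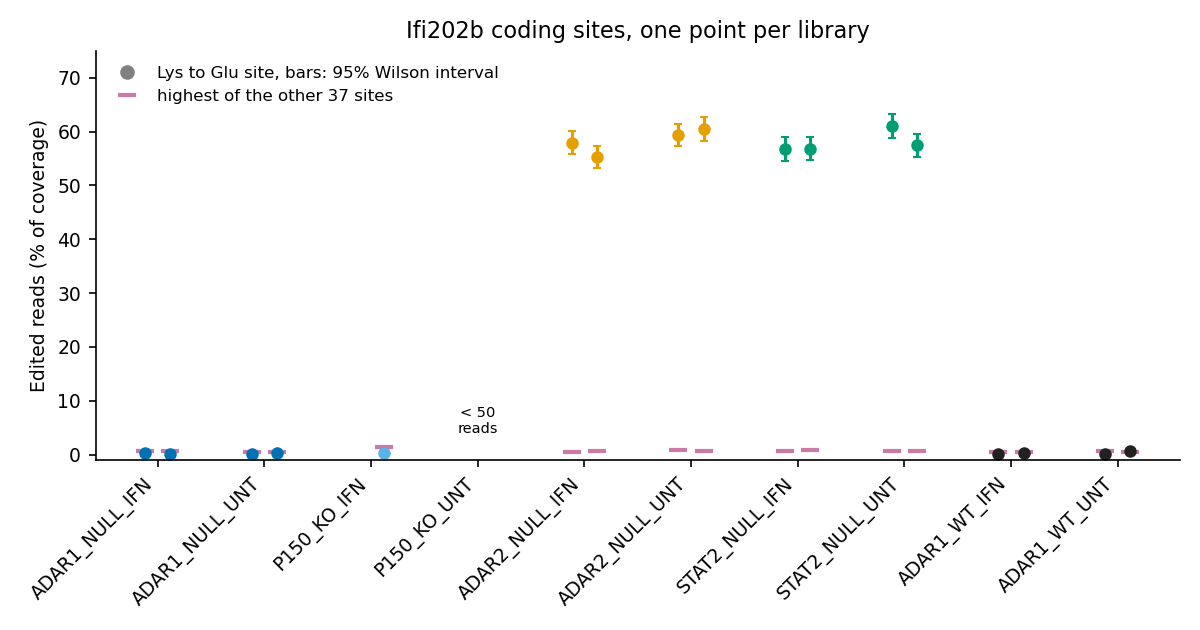
Share of reads with the edited base in percent (vertical axis) at the Ifi202b lysine to glutamate site in each library with at least 50 reads, by group (horizontal axis), with 95% Wilson intervals for counting error. The horizontal marks give the highest of the other 37 Ifi202b sites in the same library. The 8 libraries of ADAR2_NULL and STAT2_NULL lie at 55.3% to 61.0% with or without interferon, and the 9 other plotted libraries lie below 0.611%. P150_KO has 1 plotted library, and its shallow ones, at 25% and 100% of 8 and 2 reads, are not drawn.

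The other 37 Ifi202b sites reached at most 0.870% in the ADAR2_NULL and STAT2_NULL libraries, and at most 1.40% in any library with coverage, in the second treated P150_KO library. The next site by average level, 175901502, had 0.0453% to 0.870% in the 17 covered libraries. Sites 175894110 and 175894063, the next in that order, had 0% to 0.736% and 0.108% to 0.534%. None of the 37 was tested, since none reached a mean level of 1%. The mean over all 38 sites was 1.69% to 1.85% in the 4 groups of ADAR2_NULL and STAT2_NULL and 0.144% to 0.276% in the other groups with coverage, a gap that comes from the single site.

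Interferon was not followed by a called change at this site. The response was -3.34 points in ADAR2_NULL cells (SE 1.43, adjusted p = 0.869 by edgeR) and -2.44 points in STAT2_NULL cells (SE 1.81, adjusted p = 0.999). In ADAR2_NULL cells both treated libraries lay below both untreated ones, and in STAT2_NULL cells they did so as well. The share of sites across the panel with such a separation was not counted for these responses, so this is a description. The differences of these responses from that of ADAR1_WT were -3.15 and -2.25 points, with adjusted p of 0.926 and 0.854.

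Against ADAR1_WT the site was higher in each comparison of the 2 lines. It reached the 1% needed for a test through the ADAR2_NULL and STAT2_NULL libraries alone. The calls follow in part from that requirement and are a description. In treated cells the difference was 56.4 points for ADAR2_NULL (SE 1.34, adjusted p = 0.000209 by edgeR) and 56.6 points for STAT2_NULL (SE 0.123, adjusted p = 4.51e-05). In untreated cells it was 59.6 points for ADAR2_NULL (SE 0.564, adjusted p = 0.000817) and 58.9 points for STAT2_NULL (SE 1.82, adjusted p = 0.00189). Across the panel, 0.445% and 1.15% of tested sites were called higher in these comparisons after interferon, and 0.68% and 1.24% without. The 2 lines share the ADAR1_WT libraries as their control, so these differences are not independent.

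The size of a difference is taken from the group mean levels, so among the alternative fits only leaving out a library can change it. The p-values at this Ifi202b site did move with the processing. With only the groups compared in the fit, adjusted p was 0.190 for treated ADAR2_NULL, 0.0721 for untreated ADAR2_NULL and 0.130 for untreated STAT2_NULL. Without the first untreated STAT2_NULL library it was 0.0622 for the last of these.

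Set against the whole panel, a level of at least 30% in every library of these 2 lines was rare. Of 5207 sites with at least 50 reads in all 16 libraries of ADAR1_NULL, ADAR2_NULL, STAT2_NULL and ADAR1_WT, 2 had at least 30% in all 8 ADAR2_NULL and STAT2_NULL libraries. One is the Ifi202b site, and the other is 75114517 in the 3′ UTR of Rpa1. The Rpa1 site had 90.8% to 100% in the ADAR1_WT libraries and 36.4% to 50% in those of ADAR1_NULL. The Ifi202b site alone was under 1.5% in all libraries of both. This pattern was chosen after the values were seen, so it is a description without a test.

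RNA editing and a DNA difference carried by the ADAR2_NULL and STAT2_NULL lines cannot be told apart at this site. The values that bear on the matter are the level near 58% in both lines and its lack of a called response to interferon. In ADAR1_WT cells the level was under 0.611%, with 0.0767% and 0.306% in the treated libraries, whose Slfn5 was edited. Further values are the edited reads in 2 shallow P150_KO libraries, which can be a single read pair each. The other Ifi202b sites reached at most 0.870% in the ADAR2_NULL and STAT2_NULL libraries. No library combines these 2 lines with a loss of ADAR1, and no genomic DNA was analysed here. Reads from a near-identical copy of the HIN-200 family, which lies in a cluster of related genes, were not told apart from Ifi202b either.

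Group means over 8 groups were correlated at 736 sites of other genes. The pattern most like the Ifi202b site was that of site 124620532 in 9930104L06Rik on chromosome 4 (r = 0.913). It had 5.18% in treated and 3.84% in untreated ADAR2_NULL cells, and 5.48% in treated and 4.16% in untreated STAT2_NULL cells. ADAR1_WT cells had 2.29% with interferon and 1.22% without. The next were uc007nip.2, Commd2, Pigu and uc009qeo.1, with r of 0.885 to 0.832. None of the 5 had a group mean above 6.1%.

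Few genes of a fixed list of other interferon and immune genes were in the panel, and genes outside that list were not counted. Of 81 further genes for interferon receptors and signalling, nucleic acid sensors, antiviral effectors, Schlafen proteins and HIN-200 proteins, 7 were listed, with 34 sites. One, Ifi203, a HIN-200 gene, was covered, with 15 sites in its 3′ UTR and a highest level of 1.91%. One Ifi203 site was tested in 6 comparisons and was called in 0, with 0 at an unadjusted p under 0.05 by edgeR. At site 175850843 of Ifi203 the group means were 1.12% in treated and 0.604% in untreated ADAR2_NULL cells, against 0.825% in treated and 1.29% in untreated ADAR1_WT cells. No other Schlafen gene of the list was among the sites listed.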

How the data were processed

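Amplicons of known editing sites were made from total RNA by reverse transcription and PCR, per the labels, and aligned with BWA and SAMtools to mm9, per the submitters' processing notes, with no versions or filters stated there. Per the file headers, the deposited tables give counts of covering and of edited reads at every site, beside their ratio as a fraction. That deposited fraction equalled edited reads over coverage to within 0.0005 at 195328 values, so the counts were used. Libraries were grouped by genotype and treatment. The members and gene lists were chosen with earlier results of these data known.

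Edited and unedited counts of all 20 libraries were fitted with edgeR 4.0.16 (R 4.3.3; modelMatrixMeth, glmQLFit, glmQLFTest), 1 coefficient per group, in 17 comparisons: interferon in 5 lines, 8 of a line with ADAR1_WT and 4 of responses. Tests were two-sided and needed 50 reads in each library compared and a mean level of 1%. P-values were adjusted by Benjamini-Hochberg over all tested sites, with a threshold of 0.05. SE values come from the spread of library levels. The code was tested on simulated data. No pair of libraries in a group matched within counting noise (chi-square per degree of freedom 3.20 to 20.2). Upper limits at 0 are 3 reads over the coverage.

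Named sites are the 4 per gene with the highest mean level and every called site whose groups do not overlap. The 4 leading Slfn5 sites and the leading Ifi202b site have their value in each covered library; the others are given by group and range. Alternatives were read minimums of 20 and 100, no minimum level, limma 3.58.1 on log2 odds with 0.5 reads added, only the groups compared in the fit, a replicate block, each library left out, pooled levels and, chosen after seeing the data, no P150_KO libraries. Tables and figures used matplotlib 3.10.9, scipy 1.17.1, numpy 2.4.6 and pandas 2.3.3 under Python 3.11.15.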

Additional observations from a re-analysis of the deposited data

Results flagged for a closer look

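The interferon response at 11 Slfn5 sites differed between STAT2_NULL and ADAR1_WT cells by the test of that difference (edgeR, adjusted p under 0.05). The tested sites reached the required level through the treated ADAR1_WT libraries alone. The count therefore follows largely from that requirement, and it depends on single libraries, as given above. The STAT2_NULL response minus the ADAR1_WT response was -70.7 points at 82776157, -70.1 at 82776122, -67.3 at 82776119, -61.0 at 82776097, -60.8 at 82776123 and -56.6 at 82776086. It was -27.2 points at 82776114, -14.4 at 82776154, -12.8 at 82776158, -11.4 at 82776163 and -8.26 at 82776121. The 3 tested sites without a call were 82776068, 82776090 and 82776159, with differences of -28.8, -6.37 and -21.1 points and adjusted p of 0.256, 0.259 and 0.0769. These 14 sites lie in 1 amplicon and share their reads, so they are not independent of each other. Groups of 2 libraries allow no check for single outlying samples.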

How the results depend on the processing

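Counts of called member sites were recomputed under each alternative. With only the groups compared in the fit, 5 sites were called for interferon in ADAR1_WT (13 in the full fit) and 4 for the STAT2_NULL response against that of ADAR1_WT (11). It left 0, against 1, for treated P150_KO, treated and untreated ADAR2_NULL and untreated STAT2_NULL against ADAR1_WT. Limma called 2 sites for treated ADAR2_NULL and 2 for untreated STAT2_NULL, a minimum of 100 reads also called 2 for the last, and no minimum level called 1 for the P150_KO response against that of ADAR1_WT (0 in the full fit). For these 4 counts the sites gained were 91490832 and 91490952 with limma, 91490952 at 100 reads and 91490911 with no minimum level, all of Ifnar1. The cause was not tested. Over all sites, the same restriction of the fit left 109 calls for interferon in ADAR1_WT, against 502. Without the P150_KO libraries the STAT2_NULL response count was 8.

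Leaving out 1 library at a time gave 0 to 1 calls for interferon in P150_KO, 10 to 11 in ADAR2_NULL, 0 to 0 in STAT2_NULL and 13 to 15 in ADAR1_WT. Against ADAR1_WT after interferon it gave 14 to 18 for ADAR1_NULL, 2 to 14 for P150_KO, 1 to 2 for ADAR2_NULL and 13 to 18 for STAT2_NULL. The upper end for P150_KO comes from Slfn5 sites without the first treated P150_KO library, on 1 library assumed to vary like the others. Untreated, it gave 0 to 1 for ADAR1_NULL, 0 to 0 for P150_KO, 1 to 1 for ADAR2_NULL and 0 to 1 for STAT2_NULL. For responses against that of ADAR1_WT it gave 0 to 8 for ADAR1_NULL, 0 to 0 for P150_KO, 0 to 0 for ADAR2_NULL and 4 to 11 for STAT2_NULL; the 8 arose without the second untreated ADAR1_NULL library.

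With the replicate block the STAT2_NULL response count was 10 and the other counts of member calls did not change; of 75 site results 74 kept their call. Same-numbered libraries did not deviate together (r of -0.161 to 0.145 over 45 pairs of groups, median 0.0160, 2 pairs over 0.1), so the numbers were not taken as pairs. All 132 sites met the coverage requirement at 20 and at 100 reads, and no level moved beyond its SD when reads were pooled. No result reversed. Depth limits Slfn5 in ADAR1_NULL and P150_KO cells and Ifi202b in P150_KO cells, where at most 1 library of a group was covered, except treated ADAR1_NULL cells for Slfn5.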
